A study of Homo sapiens with 12 samples.

Results

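Integrin and laminin genes were followed in LN229, an established human glioblastoma cell line, in 1% and 20% oxygen. The members are the integrin alpha and beta subunits and the laminin alpha, beta and gamma chains whose symbol stands alone on a probe set of the array. They number 30 of the 14232 genes measured this way, 21 integrin subunits and 9 laminin chains, each with 1 such probe set. RefSeq lists 38 protein-coding genes in the families. Of the other 8, ITGA1, ITGA4, ITGAE, ITGAM and LAMB3 share their probe sets with other symbols. The 8 were not analysed here.

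The 12 arrays fall into 4 groups of 3. Cells in 1% oxygen had received siRNA against HIF1A, siRNA against HIF2A (gene symbol EPAS1) or non-targeting control siRNA, and cells in 20% oxygen had received the control siRNA. Every group was therefore transfected, 24 h after seeding, and kept for a further 48 h before 16 h at its oxygen level. The model is 1 cell line, and no group combines 20% oxygen with a HIF siRNA. The comparisons ask how the transcripts differ in hypoxia and with each siRNA.

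Integrins are cell surface receptors made of an alpha and a beta subunit, and the pairing decides what the receptor binds. Subunit ITGB1 pairs with many alpha subunits, ITGAV with several beta subunits, and ITGB4 with ITGA6 alone. Laminins are basement membrane proteins built of an alpha, a beta and a gamma chain, and several integrins bind them. In glioblastoma both families are known for their part in adhesion and invasion. HIF1A and EPAS1 encode the subunits that make the hypoxia-inducible factors sensitive to oxygen, and these factors bind DNA at the core motif ACGTG or GCGTG.

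The RefSeq promoter table (GRCh38.p14, 250 bases before to 50 after the gene's start) held 20 of the 30 members. Shown are ITGA2, ITGA5 and ITGB5, the subunits with a called change for which it gives a promoter. Each reads 5′ to 3′ on the gene's strand, with the core motif in capitals. ITGA2 lies at chr5:52989102-52989401 on the plus strand, ITGA5 at chr12:54419217-54419516 on the minus strand and ITGB5 at chr3:124901369-124901668 on the minus strand.
ITGA2: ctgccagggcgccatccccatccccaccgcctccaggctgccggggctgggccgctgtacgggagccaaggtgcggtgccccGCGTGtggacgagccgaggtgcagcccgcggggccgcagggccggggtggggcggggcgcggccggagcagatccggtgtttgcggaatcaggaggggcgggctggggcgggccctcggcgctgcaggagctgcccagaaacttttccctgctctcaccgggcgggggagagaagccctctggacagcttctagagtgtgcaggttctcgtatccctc
ITGA5: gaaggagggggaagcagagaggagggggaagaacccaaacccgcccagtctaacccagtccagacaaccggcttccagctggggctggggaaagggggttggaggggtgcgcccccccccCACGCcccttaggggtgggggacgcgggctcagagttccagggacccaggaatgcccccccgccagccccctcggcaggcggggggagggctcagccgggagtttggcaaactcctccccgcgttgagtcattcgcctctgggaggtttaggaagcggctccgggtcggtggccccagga
ITGB5: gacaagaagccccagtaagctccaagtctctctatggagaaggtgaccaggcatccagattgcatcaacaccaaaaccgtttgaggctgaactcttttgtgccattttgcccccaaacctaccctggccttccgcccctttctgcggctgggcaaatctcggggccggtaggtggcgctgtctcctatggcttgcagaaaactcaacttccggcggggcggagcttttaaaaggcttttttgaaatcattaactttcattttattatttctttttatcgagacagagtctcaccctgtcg
The ITGA2 window held 1 GCGTG, whose first base lay at position -168 from the start. The ITGA5 window held 1 GCGTG on the opposite strand, printed as CACGC, with its first base at -130. The ITGB5 window held neither motif on either strand. Of the 20 members, 10 (50%) had at least 1 of the motifs on either strand, against 48.4% of all 27305 promoters in the table. GCGTG occurred in 9 members (45.0%, against 36.3% of all promoters) and ACGTG in 2, ITGA6 and ITGA11 (10.0%, against 21.6%). In ITGA6, ACGTG was counted on both strands at 1 place, where it overlaps its own reverse complement. A match of these letters is no measured binding site.

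The siRNA targets were checked first. HIF1A measured 8.20, 9.06 and 7.74 on the log2 scale with HIF1A siRNA, against 11.72, 11.40 and 11.26 with control siRNA in 1% oxygen (log2 change -3.13, SE 0.27, limma, adjusted p = 0.00016). EPAS1 measured 7.18, 6.99 and 7.18 with HIF2A siRNA and 8.60, 8.08 and 8.02 with HIF1A siRNA, against 9.74, 9.57 and 9.83 with control siRNA. It was therefore lower with both siRNAs (log2 changes -2.59 with HIF2A siRNA and -1.48 with HIF1A siRNA). In normoxia EPAS1 measured 8.55, 8.42 and 8.59, so it was higher in hypoxia with control siRNA (log2 change 1.19, limma adjusted p = 0.000715). Against normoxia it changed by -0.29 with HIF1A siRNA (limma adjusted p = 0.148) and by -1.40 with HIF2A siRNA (limma adjusted p = 0.000272). Whether the changes with HIF1A siRNA follow from HIF1A, EPAS1 or both was not tested. Arrays of a group correlated at r = 0.983 to 0.994 across probe sets. Array medians ran from 6.49 to 6.82 and upper quartiles from 7.88 to 8.57, with the lowest upper quartile on HIF1A siRNA replicate 3. Of the glioma and astrocyte markers, S100B, VIM, NES and CD44 lay above the upper quartile of every array, while AQP4 and SLC1A2 lay below the lower quartile of every array.

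Each probe set was placed against the quartiles of its own array. This is a rank of brightness, since the deposited values carry no measure of background and probe sets differ in affinity, and it does not show which subunits the cells expressed. Of the 30 members, 13 lay above the upper quartile on all 12 arrays. They were the alpha subunits ITGA2, ITGA3, ITGA5, ITGA6 and ITGAV, the beta subunits ITGB1, ITGB3, ITGB5 and ITGB8, and the laminin chains LAMA4, LAMB1, LAMB2 and LAMC1. ITGA9 did so on 11 of 12 arrays. This group thus holds subunits of fibronectin receptors (ITGA5 with ITGB1), of vitronectin receptors (ITGAV with ITGB3 or ITGB5), of collagen receptors (ITGA2) and of laminin receptors (ITGA3, ITGA6), and 1 alpha, 2 beta and 1 gamma laminin chain.

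At the other end, 4 members lay below the lower quartile on all arrays, ITGA8, ITGB6, LAMA2 and LAMB4. A further 8 lay below the median on every array: the collagen receptor subunits ITGA10 and ITGA11, the muscle-type ITGA7, the leukocyte subunits ITGAL, ITGAX, ITGB2 and ITGB7, and LAMA1. The platelet subunit ITGA2B, ITGB4, ITGA9, LAMA5 and LAMC3 fell into none of these classes. Of 13 leukocyte markers measured, 4 lay below the lower quartile on all arrays (PTPRC, CD3E, CD4 and AIF1) and 10 below the median on all, while CD68 lay above the upper quartile on 7 of 12 arrays. No fold was taken between different probe sets.

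In hypoxia with control siRNA against normoxia, 3 integrin subunits rose and no member fell (limma over all 14232 genes, Benjamini-Hochberg adjusted p under 0.05). They were ITGA5, the alpha subunit of the fibronectin receptor, ITGB3, a beta subunit of vitronectin receptors, and ITGB4, the laminin-binding partner of ITGA6. The 3 of 30 members called higher make 10.0%, where 3.37% of all genes were called higher. None was called lower, where 8.95% of all genes were, and 4 members (13.3%) had an unadjusted p under 0.05, against 25.6% of all genes. The median change was 0.08 over the members and -0.03 over all genes. Of 30 members, 12 had each hypoxic value above each normoxic value and 1 had each below, against 12.1% and 26.3% of all genes. Markers also moved in this comparison. In bulk RNA, fewer cells of a type and less RNA per cell cannot be told apart. The pericyte marker RGS5 was higher (log2 change 0.76, limma adjusted p = 0.0228), and the glioma and astrocyte markers S100B (-0.63, limma adjusted p = 0.00909) and NES (-0.41, limma adjusted p = 0.0112) were lower. RGS5 was 1 of 5 fibroblast and pericyte markers measured, which had a median change of -0.06. S100B and NES were 2 of 11 glioma and astrocyte markers, whose changes ran from -0.63 to 0.46 with a median of 0.05. An unadjusted limma p lay under 0.05 for 2 of the 5 and 4 of the 11 markers. A median near 0 does not show that the other markers stayed unchanged. The part of the called markers in the rise of the integrin subunits was not tested.

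ITGA5 measured 10.82, 10.70 and 10.71 in hypoxia, against 10.01, 10.03 and 10.08 in normoxia. The hypoxic values lay apart from the normoxic ones, and the rise was 1.63-fold (log2 change 0.70, 95% interval 0.42 to 0.98, SE 0.13, n = 3 arrays per group, limma adjusted p = 0.00566). ITGB3 measured 10.97, 10.89 and 10.83 in hypoxia, against 10.19, 10.15 and 10.11 in normoxia. It rose 1.68-fold (log2 change 0.75, 95% interval 0.49 to 1.01, SE 0.12, limma adjusted p = 0.00267), again with no overlap. ITGB4 measured 6.88, 7.02 and 6.95 in hypoxia, against 6.48, 6.55 and 6.49 in normoxia, and rose 1.36-fold (log2 change 0.44, SE 0.09, limma adjusted p = 0.00719). These 3 calls held under each of the 16 alternative settings run.

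**Figure D1:**
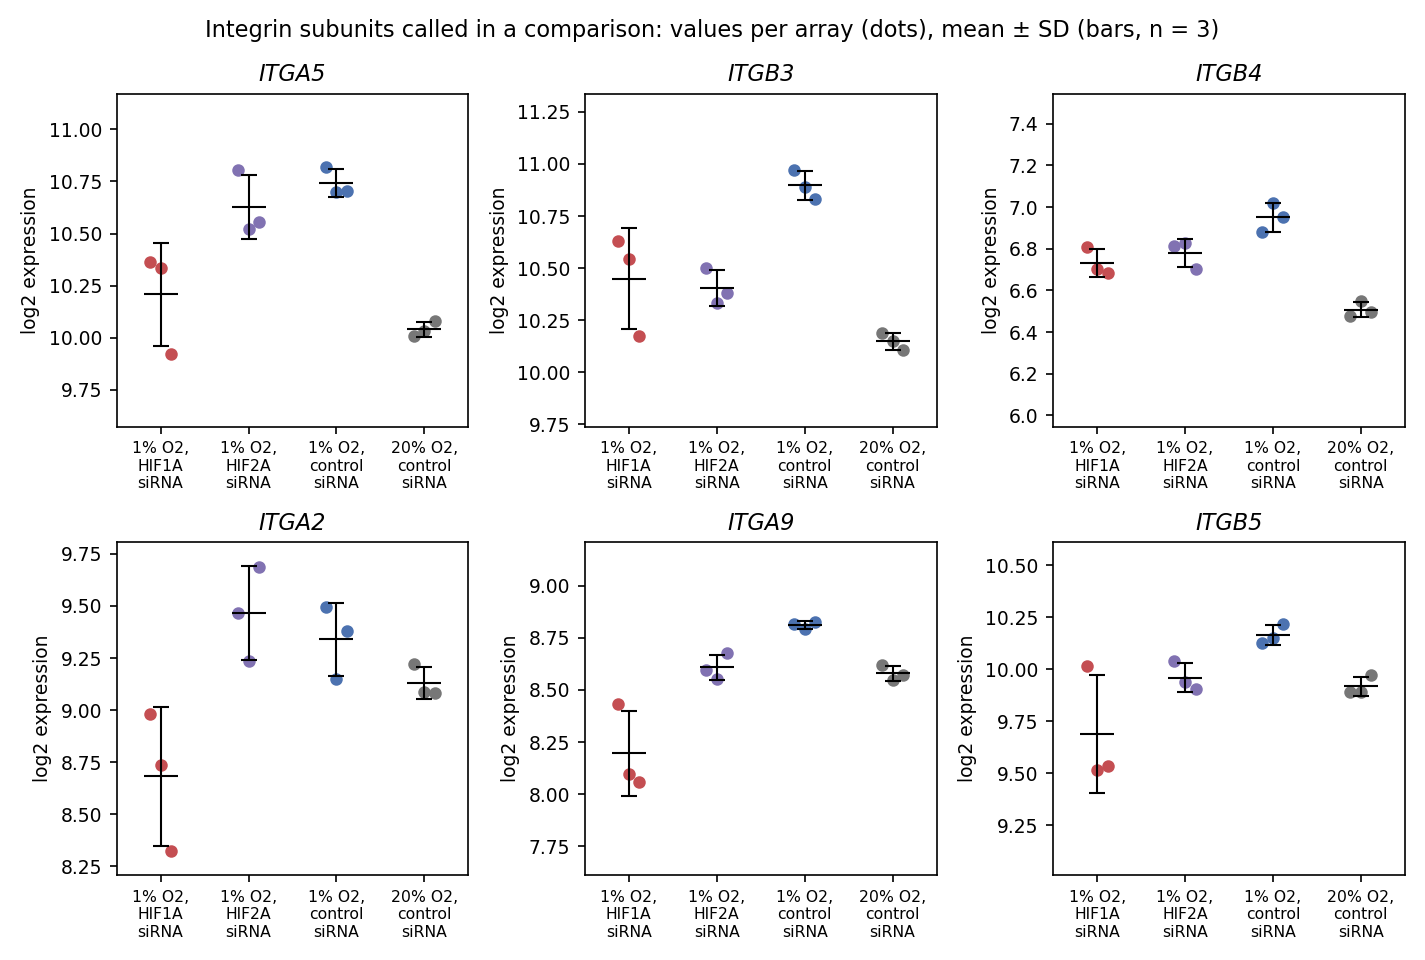
Log2 expression of the 6 integrin subunits called in hypoxia or with HIF1A siRNA, 1 panel per gene, for HIF1A siRNA, HIF2A siRNA and control siRNA in 1% oxygen and control siRNA in 20% oxygen. Dots are arrays and bars are mean ± SD (n = 3); the ITGA5, ITGB3 and ITGB4 values of hypoxia with control siRNA lie above those of normoxia, and the ITGA2 values with HIF1A siRNA (8.32 to 8.98) lie below those of the other groups.

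The usual partners of these subunits were not called, apart from ITGB1 with cyclic loess. ITGB1, the partner of ITGA5, measured 12.02, 11.84 and 11.76 in hypoxia, against 11.74, 11.60 and 11.68 in normoxia (log2 change 0.20, 95% interval -0.09 to 0.50, limma adjusted p = 0.41). Its hypoxic values all lay above the normoxic ones, and with cyclic loess it was called higher (0.34, limma adjusted p = 0.0384). ITGAV, the partner of ITGB3, measured 10.40, 10.19 and 10.39 in hypoxia, against 10.37, 10.21 and 10.16 in normoxia, which overlap (log2 change 0.08). ITGA6, the partner of ITGB4, measured 10.96, 10.62 and 10.73 in hypoxia, against 11.06, 10.86 and 10.88 in normoxia, also with overlap (log2 change -0.16). ITGA3, which binds laminin with ITGB1, had a log2 change of 0.28 (limma adjusted p = 0.066). It was called higher under 5 alternatives, namely quantile normalization (0.38), cyclic loess (0.42), centring of arrays on their medians (0.34), robust variance moderation with a trend (0.28) and array weights (0.22). ITGA2 had a log2 change of 0.21 (limma adjusted p = 0.534) and was called higher with quantile normalization (0.37, limma adjusted p = 0.035) and cyclic loess (0.38, limma adjusted p = 0.0253). ITGA9 (0.23, limma adjusted p = 0.195) and ITGB5 (0.25, limma adjusted p = 0.267) had every hypoxic value above every normoxic value. Quantile normalization, cyclic loess and array weights each called both higher.

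The laminin chains showed no called change in hypoxia. Their log2 changes ran from -0.13 to 0.25 with a median of 0.03, and 0 of 9 passed limma's test or had an unadjusted p under 0.05. LAMB1, a beta chain, measured 11.16, 10.98 and 11.12 in hypoxia, against 11.27, 11.21 and 11.18 in normoxia (log2 change -0.13, 95% interval -0.38 to 0.12). Its 3 hypoxic values lay below the normoxic ones, but with cyclic loess the difference was 0.01. LAMC1, the gamma chain common to most laminins, measured 10.94, 10.76 and 10.75 in hypoxia, against 10.72, 10.68 and 10.68 in normoxia (log2 change 0.13, 95% interval -0.17 to 0.42). LAMA4, an alpha chain of vessel walls, changed by 0.07 and LAMB2 by 0.25 (95% intervals -0.18 to 0.33 and -0.04 to 0.54), and with array weights LAMB2 was called higher. In LAMC1 and LAMB2 every hypoxic value lay above every normoxic value. The intervals admit changes of the size seen for ITGB4 in LAMB2 but not in LAMB1, LAMC1 or LAMA4.

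**Figure D2:**
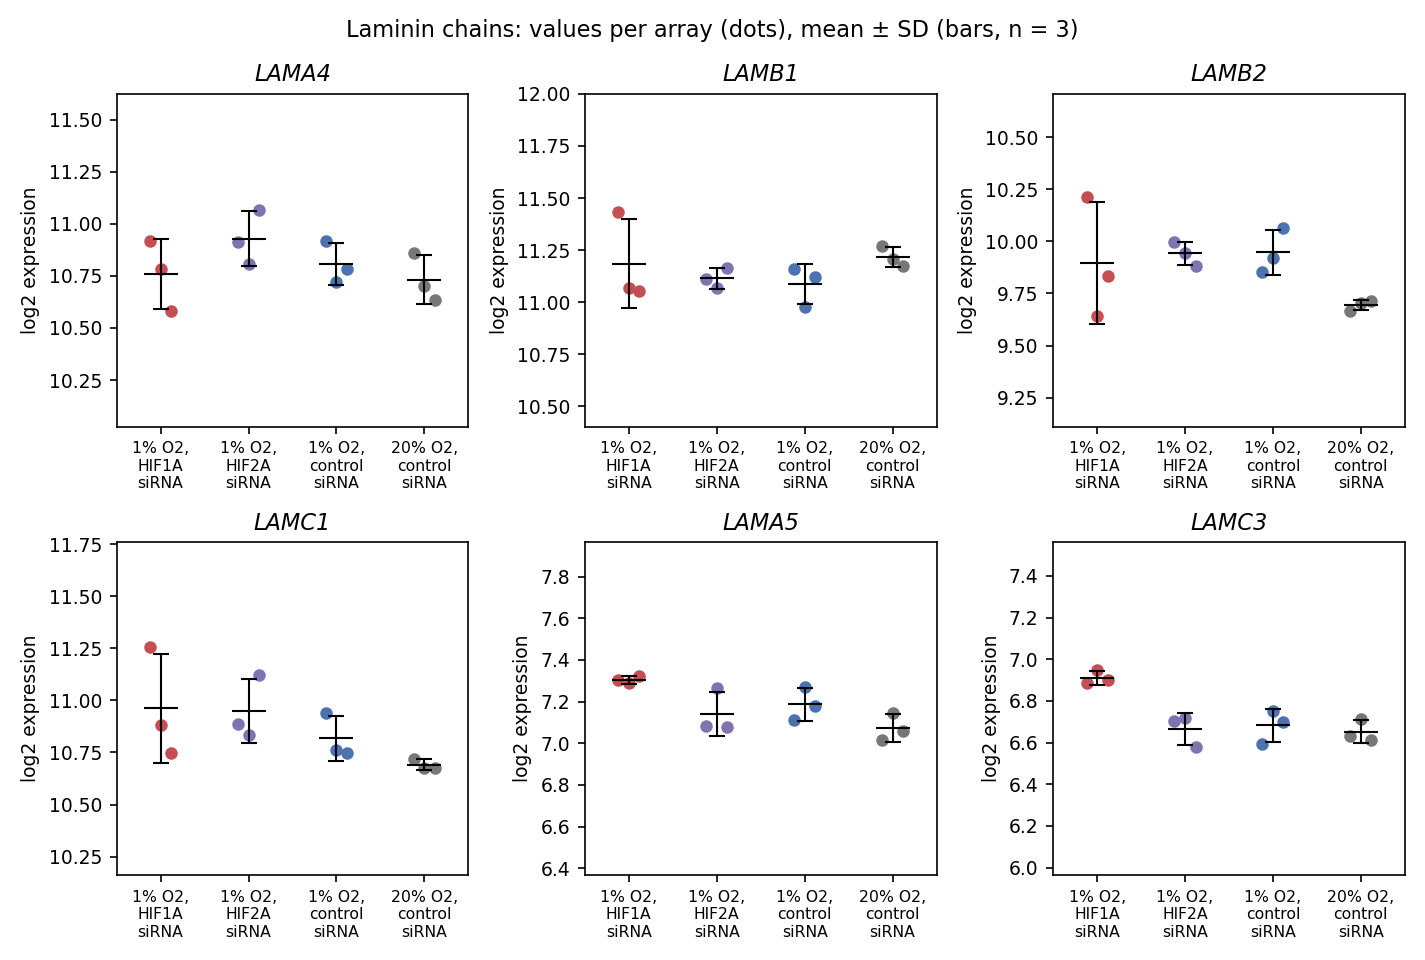
Log2 expression of 6 laminin chains, 1 panel per gene, in the same 4 groups. Dots are arrays and bars are mean ± SD (n = 3). The LAMC3 (6.88 to 6.95) and LAMA5 (7.29 to 7.32) values with HIF1A siRNA lie above those of the other groups. The normoxic LAMC1 values (10.68 to 10.72) lie below those of the other groups. Against the hypoxic control and HIF2A siRNA, the normoxic values lie above for LAMB1 and below for LAMB2. All groups overlap for LAMA4.

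With HIF1A siRNA against control siRNA in 1% oxygen, 5 integrin subunits fell and no member rose. The subunits were ITGA2, which binds collagen and laminin, ITGA9, which binds tenascin-C and osteopontin, ITGA5, ITGB5, which pairs with ITGAV, and ITGB3. These 5 of 30 members make 16.7%, where 10.2% of all genes were called lower and 0.857% higher. Unadjusted p-values lay under 0.05 for 11 members (36.7%), against 30.6% of all genes. The median change was 0.04 over the members, -0.03 over the integrins and 0.12 over the laminins, against -0.05 over all genes. Of the members, 8 had each value with HIF1A siRNA below each with control siRNA and 7 had each above, against 19.8% and 11% of all genes. This comparison and the one with normoxia use the same hypoxic control arrays, so a chance deviation of those arrays enters both with opposite sign.

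ITGA2 measured 8.98, 8.74 and 8.32 with HIF1A siRNA, against 9.49, 9.15 and 9.38 with control siRNA. It fell 1.58-fold (log2 change -0.66, 95% interval -1.04 to -0.28, SE 0.17, limma adjusted p = 0.035), with no overlap. ITGA9 measured 8.43, 8.10 and 8.06 with HIF1A siRNA, against 8.82, 8.79 and 8.83 with control siRNA, and fell 1.53-fold (log2 change -0.62, SE 0.11, limma adjusted p = 0.00628). ITGA9 also lay below its normoxic values of 8.62, 8.55 and 8.57. ITGA5 measured 10.37, 10.34 and 9.92 with HIF1A siRNA, against 10.82, 10.70 and 10.71 with control siRNA (log2 change -0.53, SE 0.13, 1.45-fold lower, limma adjusted p = 0.0258). ITGB5 measured 10.02, 9.51 and 9.53, against 10.12, 10.15 and 10.22 with control siRNA (log2 change -0.48, SE 0.13, 1.39-fold lower, limma adjusted p = 0.0387). ITGB3 measured 10.63, 10.54 and 10.17, against 10.97, 10.89 and 10.83 with control siRNA (log2 change -0.45, SE 0.12, 1.36-fold lower, limma adjusted p = 0.0379). In each of the 5, every value with HIF1A siRNA lay below every control value, and replicate 3 was the lowest for ITGA2, ITGA9, ITGA5 and ITGB3.

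The 5 calls depended on which arrays entered the fit and on the normalization. Each kept its direction under all 16 alternatives run, but fitted on the 6 arrays compared, with their own spread, 0 of the 5 were called. Without hypoxia control replicate 1, without hypoxia control replicate 3 or without HIF1A siRNA replicate 3, 1 was called, ITGA9, and without hypoxia control replicate 2, 3 were called. The highest adjusted p over the alternatives was 0.149 for ITGA2, 0.103 for ITGA9, 0.143 for ITGA5, 0.183 for ITGB5 and 0.181 for ITGB3. ITGB5 was called under 6 of 16 alternatives, ITGB3 under 10, ITGA5 under 11, ITGA2 under 12 and ITGA9 under 14. Quantile normalization left ITGA2 at -0.37, ITGA5 at -0.35, ITGB3 at -0.29, ITGA9 at -0.34 and ITGB5 at -0.25, the last 2 not called. ITGB5 also lost its call with cyclic loess (-0.26) and with centring on the median (-0.35).

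ITGB8, a TGF-beta activating subunit that pairs with ITGAV, moved the other way without being called. It measured 11.13, 10.82 and 10.69 with HIF1A siRNA, against 10.86, 10.34 and 10.41 with control siRNA (log2 change 0.34, limma adjusted p = 0.164), and the groups overlap. Quantile normalization, cyclic loess and centring on the median each called ITGB8 and LAMC3 higher. The split of higher to lower calls was 2 to 3, 2 to 4 and 2 to 4 under them. Of all genes, 5.1%, 3.83% and 3.58% were called higher and 7.9%, 8.31% and 8.94% lower under these settings. The median change of all genes was 0.07 instead of -0.05 with quantile normalization or centring. ITGB1 measured 11.46, 11.76 and 11.21 with HIF1A siRNA, against 12.02, 11.84 and 11.76 with control siRNA (log2 change -0.40, limma adjusted p = 0.075). All 3 values lay below the controls, and without HIF1A siRNA replicate 2 it was called lower (log2 change -0.54, limma adjusted p = 0.0117). ITGA3 (-0.26) and ITGB4 (-0.22) were not called either, and their values with HIF1A siRNA all lay below the controls.

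**Figure D3:**
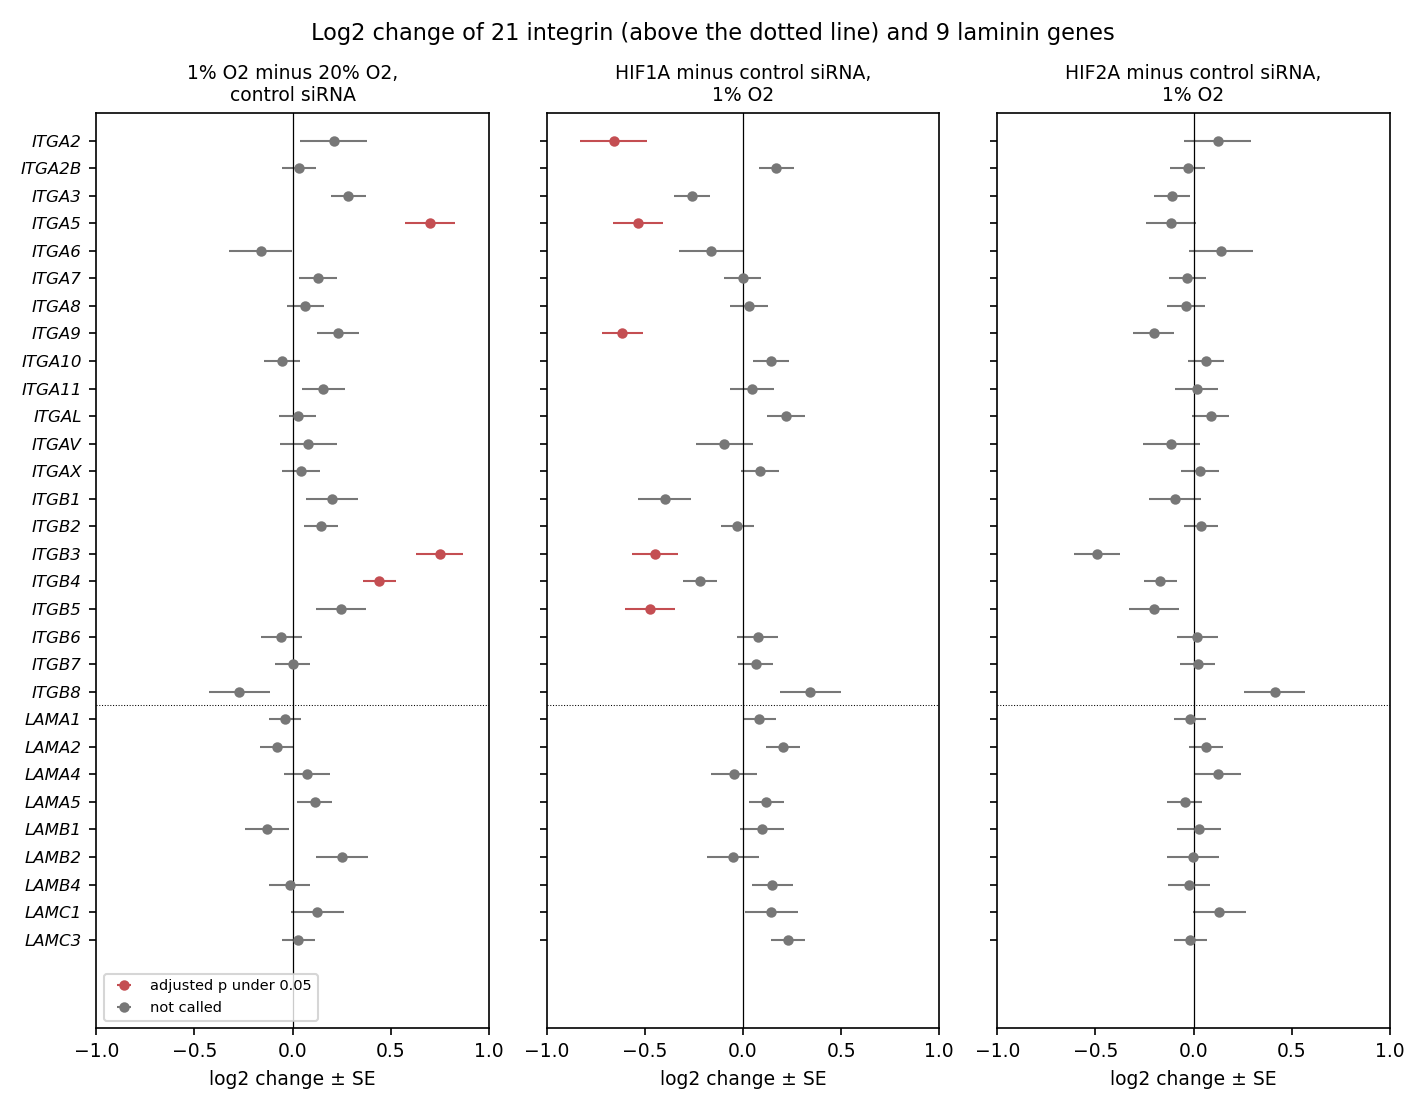
Log2 change ± SE of the 30 members for hypoxia against normoxia, HIF1A siRNA against control siRNA and HIF2A siRNA against control siRNA, from left to right, with integrins above the dotted line. Red points passed an adjusted p of 0.05: 3 subunits to the right in the first panel, 5 to the left in the second and none in the third.

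No laminin chain was called with HIF1A siRNA, and changes ran from -0.05 to 0.23 with 7 of 9 above 0 and 2 at an unadjusted p under 0.05. LAMB1 measured 11.43, 11.07 and 11.05 with HIF1A siRNA, against 11.16, 10.98 and 11.12 with control siRNA (log2 change 0.10, 95% interval -0.15 to 0.35). LAMC1 measured 11.25, 10.88 and 10.75, against 10.94, 10.76 and 10.75 with control siRNA (log2 change 0.14, 95% interval -0.15 to 0.44). For both chains the difference came from replicate 1, without which it was -0.03 for LAMB1 and -0.0028 for LAMC1. LAMC3, a less common gamma chain, measured 6.88, 6.95 and 6.90, against 6.59, 6.75 and 6.70 with control siRNA. Its values did not overlap (log2 change 0.23, limma adjusted p = 0.105), and it is described because of its values.

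The change with HIF1A siRNA was also set beside the level, with no test of a trend. Of 14 members in the highest quartile of genes by mean value, 11 changed downwards (median -0.21), and all 5 called subunits are among them. All genes of that quartile had a median of -0.25, and 17.3% of them were called lower. In the lowest quartile all 6 members changed upwards (median 0.12), where all genes had a median of 0.09. Of 9 members in the second quartile, 6 changed upwards (median 0.06, against 0.07 for all genes). The 1 member in the third changed by 0.12, where all genes had a median of -0.20. The HIF1A siRNA arrays had upper quartiles of 8.22, 8.20 and 7.88, against 8.50, 8.27 and 8.34 with control siRNA, and the part of this narrower range in the calls was not tested beyond the settings above. In hypoxia 11 of the 14 members in the highest quartile were higher and 3 lower, with a median of 0.21, against -0.16 for all genes of the quartile, a difference that was not tested. ITGA5 and ITGB3, the 2 called, lie in that quartile, where 5.93% of genes were called higher, and ITGB4 in the second, where 2.5% were.

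**Figure D4:**
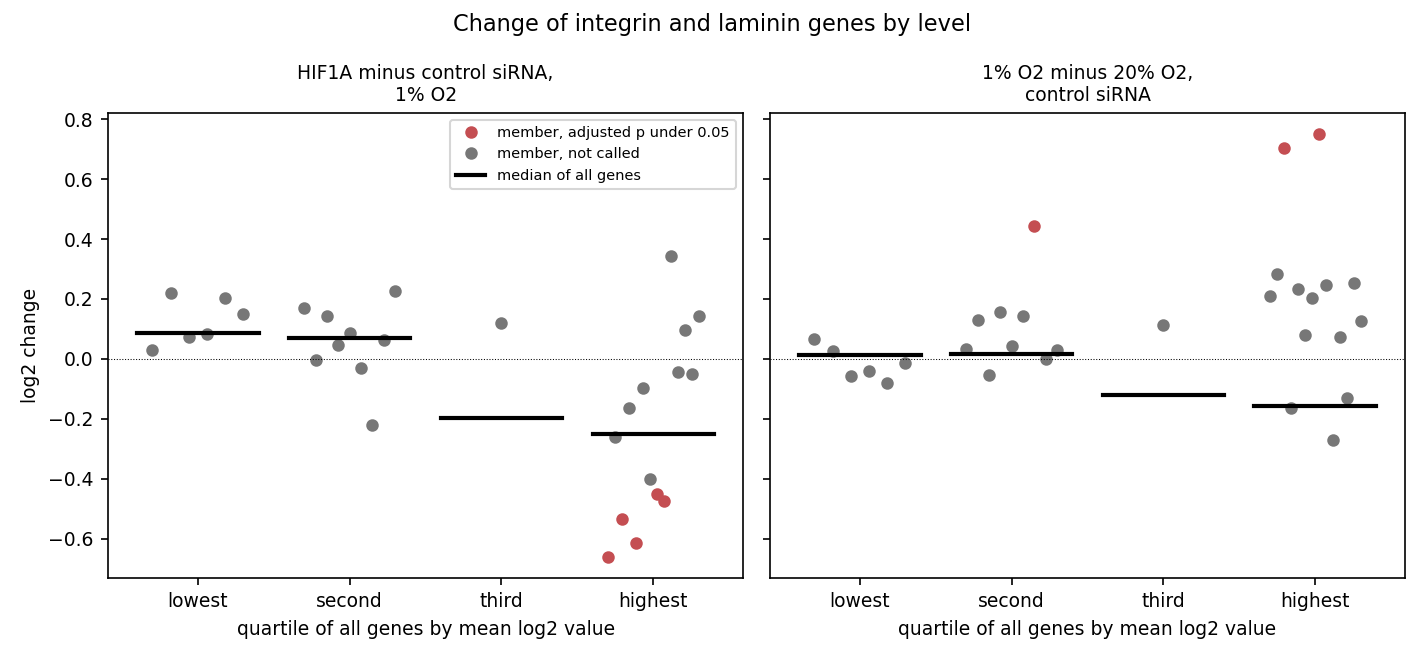
Log2 change of each member (dots) by quartile of all genes in mean log2 value, for HIF1A siRNA against control siRNA on the left and hypoxia against normoxia on the right, with black bars at the median of all genes in the quartile. On the left the called subunits (red) lie below the bar of -0.25 in the highest quartile, and on the right ITGA5 and ITGB3 lie above the bar of -0.16.

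With HIF2A siRNA against control siRNA, 0 of 30 members were called in either direction by limma, and 2 had an unadjusted p under 0.05. Over all genes 0.00703% were called, which is EPAS1 alone, and 502 had an unadjusted p under 0.05. The 2 members were ITGB3 and ITGB8. ITGB3 measured 10.50, 10.33 and 10.38 with HIF2A siRNA, each below the control values of 10.97, 10.89 and 10.83 (log2 change -0.49, 95% interval -0.76 to -0.23, limma adjusted p = 0.81). ITGB8 measured 10.95, 10.80 and 11.10, against 10.86, 10.34 and 10.41 with control siRNA, which overlap (log2 change 0.41, limma adjusted p = 1). ITGB3 missed the threshold under each alternative run, with an adjusted p of 0.0556 under cyclic loess.

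The remaining subunits called elsewhere were not called with HIF2A siRNA. ITGA5 measured 10.80, 10.52 and 10.56, against 10.82, 10.70 and 10.71 with control siRNA (log2 change -0.12, 95% interval -0.40 to 0.17). ITGA2 measured 9.47, 9.24 and 9.69, against 9.49, 9.15 and 9.38 with control siRNA (log2 change 0.12). For ITGA9, ITGB5 and ITGB4 the log2 changes were -0.20 (95% interval -0.44 to 0.03), -0.20 (-0.48 to 0.08) and -0.17 (-0.36 to 0.02). Each of them had values below the controls on all 3 arrays. Such separation was found below the controls for 4 of 30 members and 4.9% of all genes, and above them for 0 of 30 members and 4.46% of all genes. Laminin chains changed by -0.04 to 0.13, with 0 of 9 called by limma or at an unadjusted p under 0.05.

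The siRNAs were set against each other to test where they differ. With HIF1A siRNA 2 members were lower than with HIF2A siRNA and none higher, where 8.53% of all genes were called lower and 0.899% higher. ITGA2 was 1.72-fold lower (log2 change -0.78, SE 0.17, limma adjusted p = 0.0213), with values of 8.98, 8.74 and 8.32 with HIF1A siRNA, against 9.47, 9.24 and 9.69 with HIF2A siRNA. ITGA9 was 1.33-fold lower (log2 change -0.41, SE 0.11, limma adjusted p = 0.0368), at 8.43, 8.10 and 8.06 with HIF1A siRNA, against 8.59, 8.55 and 8.68 with HIF2A siRNA. Neither was called in a fit on those 6 arrays, without HIF1A siRNA replicate 3, or without HIF2A siRNA replicate 1 or 3. Without HIF1A siRNA replicate 1, 4 members were called lower, where 11.9% of all genes were. ITGA9 lost its call under 8 of 16 alternatives, among them quantile normalization (-0.13, limma adjusted p = 0.347), cyclic loess (-0.15) and centring on the median (-0.28), while ITGA2 kept its call under these 3. Values separated above for 5 members and below for 4, against 11.8% and 18.7% of all genes. ITGA5 was not called (log2 change -0.42, limma adjusted p = 0.062), although its 3 values with HIF1A siRNA lay below those with HIF2A siRNA. For ITGB3 the siRNAs differed by 0.04 (95% interval -0.22 to 0.31, limma adjusted p = 0.811), which does not show that they act alike.

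Set against normoxia, the hypoxic groups with a HIF siRNA gave few called members. With HIF1A siRNA, ITGA9 was lower (log2 change -0.38, limma adjusted p = 0.0185) and LAMC3 higher (log2 change 0.26, limma adjusted p = 0.0384), where 30.4% of all genes were called lower and 4.67% higher. ITGA9 lost its call under 7 of 16 alternatives. LAMC3 lost its call under 6, namely the fit on those 6 arrays and without HIF1A siRNA replicate 2 or 3 or any of the normoxia replicates. Quantile normalization called 12 members higher and 0 lower here, where it called 15.7% of all genes higher and 14.6% lower, and turned ITGA9 to 0.04. ITGA5 (0.17), ITGB3 (0.30, limma adjusted p = 0.07) and ITGB4 (0.22, limma adjusted p = 0.0615) were not called against normoxia. Quantile normalization, cyclic loess and centring on the median each called them higher. The log2 changes were 0.54, 0.50 and 0.35 for ITGA5, 0.63, 0.63 and 0.48 for ITGB3, and 0.40, 0.35 and 0.40 for ITGB4. Some markers of other cell types were called in this comparison too. CLDN5, ESAM, KRT14, CD68, TYROBP and MS4A1 were higher with HIF1A siRNA (log2 changes 0.30 to 0.87), and RGS5, DCN, PDGFRB and LCP1 were lower (-1.17 to -0.39). Of the glioma and astrocyte markers GFAP was higher (0.34) and CD44 lower (-0.42). The calls were 2 of 9 endothelial markers (median of the list 0.14), 1 of 8 epithelial (0.17) and 3 higher and 1 lower of 13 leukocyte markers (0.16). They were 3 of 5 fibroblast and pericyte markers (median -0.39) and 1 higher and 1 lower of 11 glioma and astrocyte markers (0.11). The part of the called markers in the changes of ITGA9 and LAMC3 was not tested. With HIF2A siRNA, ITGA5 was 1.50-fold higher than in normoxia (log2 change 0.59, limma adjusted p = 0.0158), where 2.85% of all genes were called higher and 6.79% lower. That call was lost without HIF2A siRNA replicate 1 and without any of the 3 normoxia replicates, with adjusted p-values up to 0.0685. RGS5 was higher in this comparison (log2 change 0.67), and PDGFRB (-0.31) and NES (-0.40) were lower. The 5 fibroblast and pericyte markers had a median of 0.08 and the 11 glioma and astrocyte markers a median of 0.04.

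**Figure D5:**
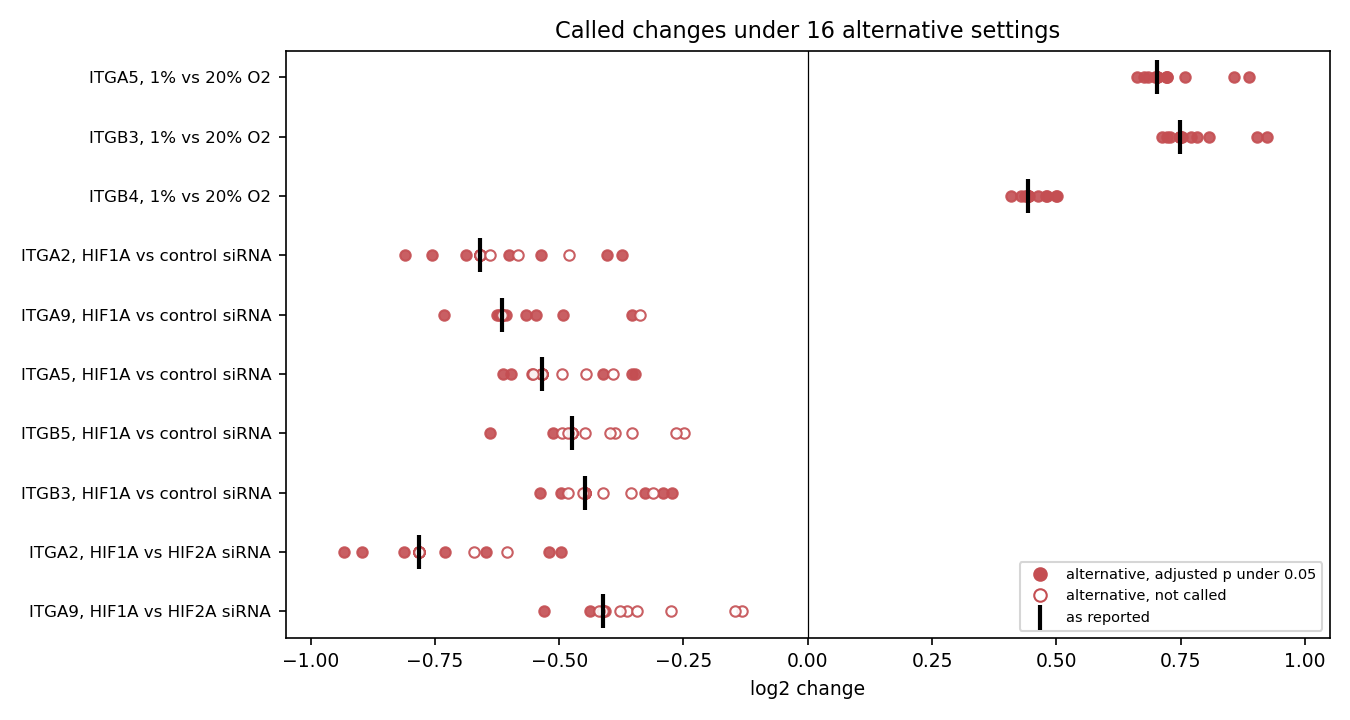
Log2 change of each called member under the 16 alternatives run (circles, filled where the adjusted p was under 0.05) and as reported (black bar). The hypoxic rises of ITGA5, ITGB3 and ITGB4 stay filled throughout (0.41 to 0.92), while the falls with HIF1A siRNA keep their side of 0 and include open circles.

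Other genes of the pathway were counted in 3 lists. The lists were chosen with earlier results of these data known, so their shares are not independent of those results. Of the integrin ligands other than laminins, 33 of 37 were measured and 7 rose in hypoxia (21.2%, against 3.37% of all genes) with none falling, at a median of 0.13. The largest rises were those of FBN1, a microfibril protein (log2 change 0.91), and of the collagen chains COL5A1 (0.78) and COL1A1 (0.77). With HIF1A siRNA 6 of the 33 fell (18.2%, against 10.2% of all genes) and none rose, at a median of -0.09, led by the matricellular POSTN (-0.85), FBN1 (-0.75) and FN1, the fibronectin bound by ITGA5 with ITGB1 (-0.65). None was called with HIF2A siRNA, where 1 had an unadjusted p under 0.05. Between the siRNAs 6 were lower with HIF1A siRNA (18.2%, against 8.53% of all genes), led by FBN1 (-0.68), CCN1 (-0.68) and FN1 (-0.63). The hypoxic count was 4 or 5 when any 1 array was left out, and the count with HIF1A siRNA was 0 without hypoxia control replicate 1, 3 without hypoxia control replicate 3 and 2 without HIF1A siRNA replicate 3.

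In the list of integrin adaptor and signalling genes, 33 of 40 were measured, and their action on integrins in these cells was not tested. In hypoxia the tensin TNS2 rose (log2 change 0.45, limma adjusted p = 0.019) and ITGB3BP, a protein named for binding ITGB3, fell (-0.74, limma adjusted p = 0.0237). Each is 3.03% of the list, against 3.37% of all genes higher and 8.95% lower. With HIF1A siRNA 4 of 33 fell and none rose, a share of 12.1% that lies near the 10.2% of all genes. Of these, PARVA, which joins integrin-linked kinase to actin (-0.65), ITGB1BP1, which binds the ITGB1 tail (-0.62), and PTK2, the focal adhesion kinase (-0.61), fell most. This count was 1 without hypoxia control replicate 1, without hypoxia control replicate 3 or without HIF1A siRNA replicate 3, 2 without hypoxia control replicate 2 and 7 without HIF1A siRNA replicate 2. Median changes were 0.05 in hypoxia and -0.14 with HIF1A siRNA, where all genes had -0.03 and -0.05. With HIF2A siRNA 0 of 33 were called and 4 had an unadjusted p under 0.05.

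Of the basement membrane partners and other laminin receptors, 16 of 23 were measured. COL4A2, a chain of the network collagen, rose in hypoxia (log2 change 0.37, limma adjusted p = 0.0322), a call lost without any 1 of the 6 arrays. With HIF1A siRNA the laminin-binding NTN4 (-0.87), the dystroglycan-associated SGCB (-0.65) and NID2, which links laminin to collagen (-0.50), fell. These 3 of 16 make 18.8%, against 10.2% of all genes, and the 1 of 16 called higher in hypoxia makes 6.25%, against 3.37%. None of these 3 was called without hypoxia control replicate 1, without hypoxia control replicate 3 or without HIF1A siRNA replicate 3, and 5 of the list were called without HIF1A siRNA replicate 2. Median changes were 0.07 in hypoxia and -0.01 with HIF1A siRNA.

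Markers of other cell types were also read against the hypoxic control. Of 5 measured fibroblast and pericyte markers, RGS5 (log2 change -1.92) and DCN (-0.65) fell with HIF1A siRNA against the hypoxic control. Their summed level on the log2 scale was 8.62 to 9.19 with HIF1A siRNA and 9.28 to 9.48 with HIF2A siRNA, against 9.25 to 9.42 with control siRNA in hypoxia and 9.21 to 9.49 in normoxia. None of the 5 lay below the lower quartile on all arrays or above the upper quartile on all. Of 9 endothelial markers none was called against the hypoxic control, and PECAM1, TEK, KDR and EMCN lay below the lower quartile on every array. Their summed level was 8.79 to 8.81 with HIF1A siRNA and 8.47 to 8.72 with HIF2A siRNA, against 8.52 to 8.73 with control siRNA in hypoxia and 8.49 to 8.58 in normoxia. Of 13 leukocyte markers MS4A1 rose (0.99) and LCP1 fell (-0.75) with HIF1A siRNA. Between the siRNAs RGS5 (-1.83), LCP1 (-1.07) and DCN (-0.67) were lower with HIF1A siRNA, and S100B (0.65) and the platelet marker GP1BA (0.45) were higher. Their part in the integrin changes was not tested.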

How the data were processed

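Transcripts were measured on Affymetrix whole transcript arrays, 3 per group. Deposited values, taken here as log2 expression, ran from 1.14 to 14.27, from which base 2 was inferred. The submitters' processing notes name Partek and hg18. How background, summarization and normalization were handled is not given in the sources used here. No change of scale was made. Probe sets carry 1 symbol (14432), several (2408) or none (5171). A gene with several single-symbol probe sets took the one with the highest mean.

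Group means were fitted over all 12 arrays and 22011 probe sets with limma 3.58.1 in R 4.3.3, moderated with eBayes and adjusted by Benjamini and Hochberg over 14232 genes in each of 6 comparisons, with calls at an adjusted p under 0.05. The fit was tested on simulated data. Groups follow the labels, which do not say that replicates were separate cultures, and the p-values then reflect the spread of these samples alone, which could be technical. The number of arrays limits the precision. Alternatives changed the normalization between arrays, the filter on low values, the probe sets per gene, the arrays in the fit, the variance moderation, array weights, a replicate block, the family of p-values, and left out each array in turn.

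Members and lists were chosen with earlier results of these data known. The rule for named genes takes members called in hypoxia, with either siRNA or between the siRNAs, plus ITGB1, ITGA5, ITGAV, ITGA6, LAMB1 and LAMC1, HIF1A and EPAS1 as checks, and the 3 largest called rises and falls of each list. Others are named after their values were seen. Marker lists covered leukocytes, platelets, endothelium, epithelium, astrocytes and glioma, fibroblasts and pericytes, and muscle. Against the hypoxic control, no platelet, endothelial, epithelial or muscle marker was called with either siRNA, and S100B was called higher with HIF1A siRNA (log2 change 0.85).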

Additional observations from a re-analysis of the deposited data

How the results depend on the processing

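Of the 6 comparisons, the hypoxic rise of ITGA5, ITGB3 and ITGB4 held under each alternative run. The count of members called higher in hypoxia was 7 with quantile normalization, 8 with cyclic loess and 7 with array weights, where 6.65%, 7.44% and 6.64% of all genes were called higher, and array weights called 1 member lower, ITGB8. With HIF1A siRNA against control siRNA, 2 members were called higher under quantile normalization, cyclic loess and median centring, where 5.1%, 3.83% and 3.58% of all genes were. The count called lower was 3 with quantile normalization, 3 with array weights, 0 on the 2 groups alone, and 1 to 5 when an array was left out. Of all genes, 7.9%, 5.16%, 0.942% and 2.57% to 17.2% were called lower under these settings. For HIF1A siRNA against HIF2A siRNA, 1 member was called higher and 1 lower under quantile normalization, cyclic loess and median centring. Of all genes, 5.61%, 3.72% and 4.6% were called higher and 6.89%, 7.16% and 7.63% lower there. On the 2 groups alone 0 members were lower, against 0.864% of all genes. When an array was left out 0 to 4 members were lower, against 1.78% to 16.4% of all genes. For HIF1A siRNA against normoxia, 12, 12 and 15 members were called higher under quantile normalization, cyclic loess and median centring, with 0 lower in each, where 15.7%, 12.6% and 20.3% of all genes were called higher, against 4.67% as reported. The 2 groups alone gave 0 higher and 0 lower, array weights gave 2 higher, removal of low probe sets gave 2 lower, and leaving out an array gave 0 to 1 higher and 0 to 3 lower. For HIF2A siRNA against normoxia, 5, 7 and 4 members were called higher under quantile normalization, cyclic loess and array weights, where 5.4%, 6.01% and 7.01% of all genes were, and 0 to 1 when an array was left out. With HIF2A siRNA against control siRNA the count was 0 throughout. Median centring and quantile normalization moved the median of all genes from -0.12 to 0.06 and 0.08 for HIF1A siRNA against normoxia, cyclic loess to 0.03.

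Small changes that were not called crossed 0. In hypoxia, HIF1A gave 0.0176 with quantile normalization, 0.0885 with cyclic loess and -0.191 to 0.0357 with 1 array left out, and LAMB1 gave 0.0144 with cyclic loess. With HIF1A siRNA against control siRNA under quantile normalization, cyclic loess and centring, ITGAV gave 0.0927, 0.095 and 0.0267, LAMA4 0.0804, 0.11 and 0.0773 (0.0049 with array weights), and LAMB2 0.173, 0.165 and 0.0717. With 1 array left out, the same comparison gave -0.299 to 0.0196 for ITGA6, -0.228 to 0.0543 for ITGAV, -0.122 to 0.0445 for LAMA4, -0.0256 to 0.163 for LAMB1, -0.209 to 0.0767 for LAMB2 and -0.0028 to 0.251 for LAMC1. With HIF2A siRNA against control siRNA it gave -0.0265 to 0.0645 for LAMB1 and -0.0523 to 0.055 for LAMB2, and between the siRNAs -0.0471 to 0.182 for ITGB3. The called ITGA9, HIF1A siRNA against normoxia, gave 0.0424 with quantile normalization and 0.0457 with cyclic loess; the cause was not tested.

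The replicate block left the counts at 3 higher in hypoxia, 2 lower between the siRNAs and 4 lower with HIF1A siRNA, where ITGB5 lost its call. Same-numbered arrays of different groups deviated together (r over 0.1) in 5 of 18 pairs, with r from -0.29 to 0.42. Arrays of different numbers were not compared in this way, so the values do not decide whether the numbers pair the arrays. The filter on low values removed 5061 probe sets and ITGA8, ITGB6, LAMA2 and LAMB4. The ligand list gave 5 to 9 rises in hypoxia and 0 to 7 falls with HIF1A siRNA over the settings other than left-out arrays, the adaptors 1 to 6 falls in hypoxia and 0 to 5 with HIF1A siRNA, and the basement membrane list 1 to 4 rises and 0 to 4 falls. With no background measure, low probe sets cannot be told from no signal.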
